A study of Homo sapiens with 9 samples.

Results

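The dual-specificity MAP kinase phosphatases are enzymes that remove phosphate from both the threonine and the tyrosine of the activation loop of MAP kinases. The 9 genes described here are DUSP1, DUSP4, DUSP5, DUSP6, DUSP7, DUSP10, DUSP16, DUSP14 and DUSP3. They were chosen by name, with earlier results of these data known. Each was read from the locus with the largest summed count among those carrying its name. They are 9 of 41948 named loci in the table. RNA was sequenced from cultured human cells labelled A549, a lung adenocarcinoma line, in 9 libraries, 3 for each of 3 groups. One group received the vehicle DMSO for 24 h. Another received 2 µM RSL3 for 24 h, and the remaining group received 2 µM RSL3 together with 5 µM Fer-1 for 24 h. RSL3 is an inhibitor of GPX4, the enzyme that reduces lipid hydroperoxides, and Fer-1 (ferrostatin-1) is a radical-trapping antioxidant that blocks ferroptosis. No group received Fer-1 alone. All cells were grown in DMEM with fetal bovine serum and antibiotics, and no genetic change is given.

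MAP kinases such as ERK, JNK and p38 are switched on by phosphorylation of their activation loop, and these phosphatases switch them off again. Several of the genes are themselves transcribed in response to MAP kinase activity, which makes them a negative feedback on the pathway. DUSP1, DUSP4 and DUSP5 encode inducible nuclear enzymes, DUSP6 and DUSP7 encode cytoplasmic enzymes that prefer ERK, DUSP10 and DUSP16 encode enzymes that act mainly on JNK and p38, and DUSP3 and DUSP14 encode small atypical members without the kinase-binding domain of the others.

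Each library held 39143521 to 45855255 counts, and a count of 0 allows a level of up to 0.0659 to 0.0773 CPM, the count scaled to library size. The labelled cell type was checked against its markers, of which some were high and others nearly absent. The simple-epithelium keratins KRT8 and KRT18 reached 88.4 and 163 FPKM, the level scaled to transcript length and library size. Of the other 5 epithelial or A549 markers with a locus, CDH1 had at most 9 counts in a library, AKR1B10 24 and KRT19 63. AKR1C1 reached 1.42 FPKM, and MUC1, read from a locus joined with KRTCAP2, reached 3.77 FPKM. The alveolar type 2 marker list summed to 10.8 to 13.5 CPM with DMSO, 11.4 to 15.2 CPM with RSL3 and 11.8 to 14.1 CPM with RSL3 and Fer-1. These markers do not settle the label. The fibroblast marker list summed to 101 and 128 CPM in DMSO replicates 1 and 2 against 12.3 to 18.7 CPM in the other 7 libraries. COL1A1 had 2143 and 2533 counts in those replicates and 381 to 493 in the others. DMSO replicates 1 and 2 therefore stand apart, and calls against DMSO that are lost without both of them are given beside the result. The blood marker list summed to 541 to 598 CPM, nearly all of it from a locus that joins CD68 with EIF4A1. PTPRC had at most 129 counts in a library and LYZ at most 346. LYZ was called lower with Fer-1 against RSL3, at a log2 change of -1.19. Endothelial markers summed to 3.66 to 5.26 CPM with DMSO, 6.31 to 7.27 CPM with RSL3 and 3.62 to 5.76 CPM with RSL3 and Fer-1. The endothelial sum was thus higher in every RSL3 library, and its 1 tested marker, EGFL7, was called higher with RSL3 against DMSO (log2 change 0.91, edgeR adjusted p = 0.00745). EGFL7 reached 1 FPKM in 3 RSL3 libraries, 0 DMSO libraries and 1 library with RSL3 and Fer-1. It was thus tested only because it is high with RSL3, and its call is no support for the higher sum. The part of these marker levels in the results was not tested.

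In every group DUSP1 was the most abundant of the 9 transcripts per length and DUSP10 the least. In the DMSO libraries the level was 15.6 ± 0.0597 FPKM (SD, n = 3) for DUSP1. DUSP3 at 8.83 ± 0.655 FPKM and DUSP4 at 7.99 ± 0.181 FPKM followed, with overlapping libraries. DUSP14 at 7.33 ± 0.254 FPKM and DUSP7 at 7.26 ± 0.602 FPKM also overlapped. DUSP16 stood between the abundant and the scarce members at 4.64 ± 0.253 FPKM. DUSP6 at 1.36 ± 0.323 FPKM and DUSP5 at 1.3 ± 0.136 FPKM did not separate, and DUSP10 had 0.772 ± 0.313 FPKM. With RSL3 the order differed in 3 pairs. DUSP4, at 17.2 ± 0.935 FPKM, stood above DUSP3 at 9.48 FPKM, DUSP7 at 8.3 FPKM above DUSP14 at 6.27 FPKM, and DUSP5 above DUSP6. DUSP4 held its place with RSL3 and Fer-1, at 12.2 ± 0.581 FPKM. DUSP5 and DUSP6, at 3.61 ± 0.187 and 2.95 ± 0.568 FPKM, were the only neighbours in the order that overlapped with RSL3. DUSP7 and DUSP14, at 7.75 and 6.8 FPKM, were the only ones with RSL3 and Fer-1. Loci entered the tests when they reached 1 FPKM in at least 3 of the 9 libraries. All 9 genes passed, 8 of them with 1 FPKM in all 9 libraries and DUSP10 in 4.

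**Figure D1:**
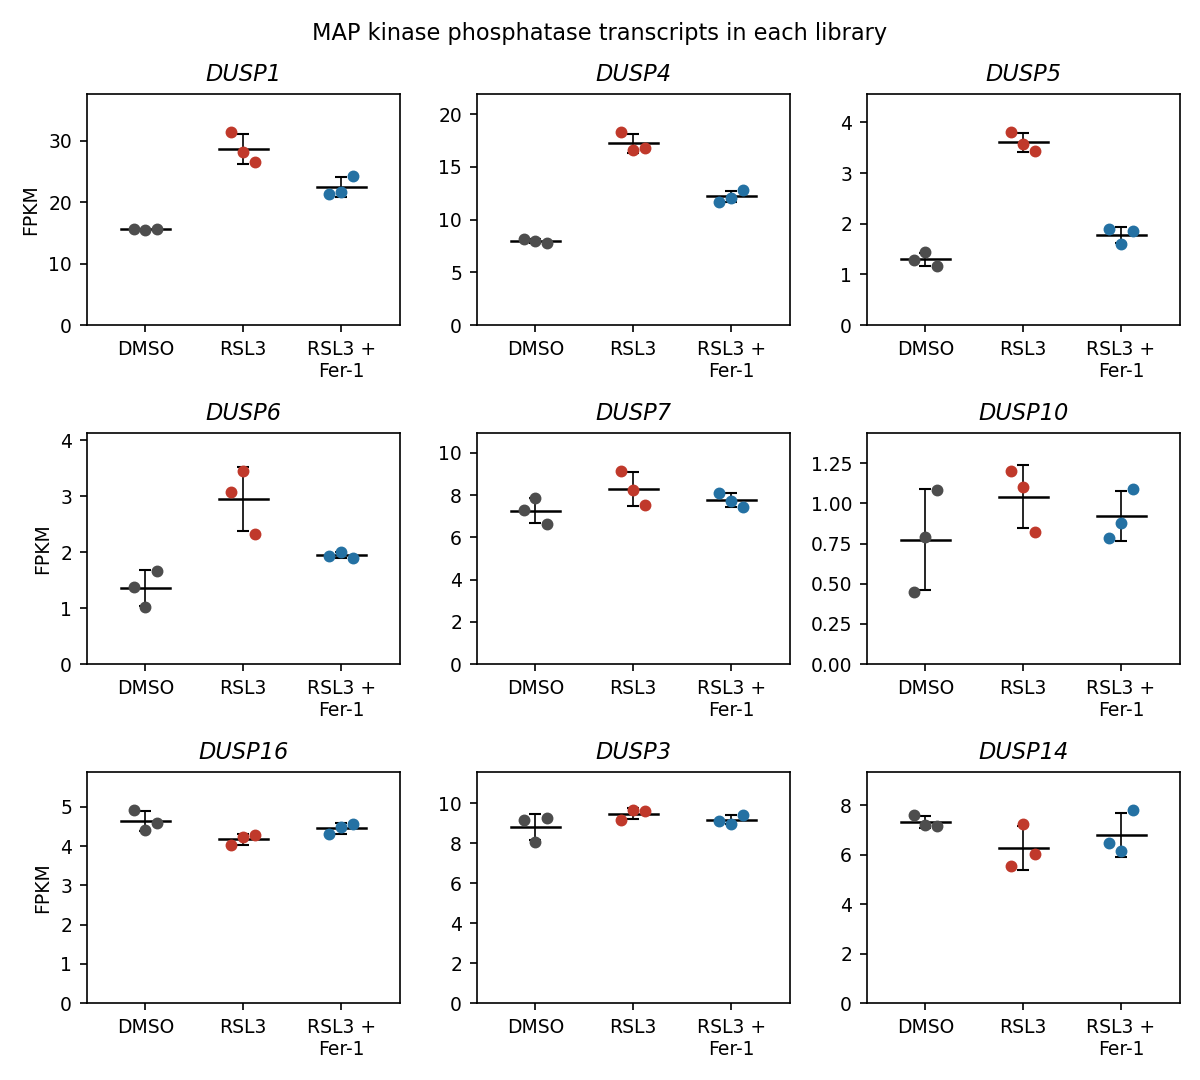
Level of each of the 9 phosphatase transcripts in every library, in FPKM on axes that start at 0 and differ between genes, with points for libraries, lines for group means and bars for the SD. DUSP1, DUSP4, DUSP5 and DUSP6 lie higher in all 3 RSL3 libraries than in all 3 DMSO libraries, with the RSL3 and Fer-1 libraries between them.

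The DNA upstream of DUSP1 is shown because DUSP1 was the most abundant member and was higher with RSL3. The sequence is RefSeq's, on GRCh38.p14, and runs 5′ to 3′ on the minus strand over the 250 bases before the start site, at chr5:172771196-172771445. Capitals mark the CRE, the E-box and the TATA box, in that order.

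DUSP1 upstream: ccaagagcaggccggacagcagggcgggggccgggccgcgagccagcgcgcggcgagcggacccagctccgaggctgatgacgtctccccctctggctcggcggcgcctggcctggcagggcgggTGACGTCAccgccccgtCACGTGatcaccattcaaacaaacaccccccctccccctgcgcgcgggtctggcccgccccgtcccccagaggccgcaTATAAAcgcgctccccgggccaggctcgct

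RefSeq windows were matched for 7 of the 9 members. In that of DUSP1, 10 motifs were searched on both strands. These were the CRE (TGACGTCA, bound by CREB and ATF factors), the E-box (CACGTG), the AP-1 site (TGANTCA), the core of the antioxidant response element (TGACNNNGC), the TATA box (TATAAA), the CCAAT box (CCAAT), the GC box (GGGCGG), the ETS core (CCGGAA), the CArG box and the NF-kB site. The CRE lay at 125 to 118 bases upstream, the E-box at 108 to 103 and the TATA box at 30 to 25. A CRE was present in 1.65% of 35097 RefSeq windows of this length, an E-box in 6.34% and a TATA box in 10.7%. The window also held the antioxidant element core on the opposite strand at 115 to 107 bases, a motif found in 10.9% of windows, which overlaps the E-box and 1 of 4 GC boxes. A GC box was found in 42.6% of windows. The AP-1 site was found in 6.57% of windows, the CCAAT box in 32.0%, the ETS core in 14.5%, the CArG box in 1.16% and the NF-kB site in 5.2%, and none of these lay in the DUSP1 window. Its GC content was 74.4%, beside a median of 58.0% over all windows. The windows of the other matched members held no CRE, E-box or TATA box. That of DUSP6, which was also higher with RSL3, held a CCAAT box as its only match, and DUSP4 and DUSP5 had no window. A match of letters is a description of the window and not a site of binding.

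RSL3 against DMSO asked how the GPX4 inhibitor changed these transcripts. DUSP1, DUSP4, DUSP5 and DUSP6 rose, by 1.86-fold to 2.8-fold, and no member was called lower. Thus 4 of 9 members were called higher (44.4%) and 0 lower. At an unadjusted p under 0.05 in edgeR 5 were higher and 2 lower. No share over all loci was computed at that unadjusted threshold, here or below. Over all 17297 tested loci 16.5% were called, 9.04% higher and 7.46% lower. The members were chosen with earlier results of these data known. Here and below, their share is therefore not ranked against that of all loci. The median log2 change was 0.44 over the 9 members and -0.0065 over all tested loci. The members' median is the value of DUSP10, which was not called. Without DMSO replicate 1 the median was 0.20, then the value of DUSP7. Without DMSO replicate 3 it was 0.76, that of DUSP10. A call here and below is an adjusted p under 0.05, from the quasi-likelihood test of edgeR adjusted by Benjamini and Hochberg's method over all tested loci. In bulk RNA, a change in the share of cells that express a gene and a change in RNA per cell cannot be told apart. By library, 5 of 9 members did not overlap between RSL3 and DMSO, 4 higher and 1 lower, where 30.8% of tested loci did not overlap, 15.8% higher and 14.9% lower.

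DUSP5, the inducible nuclear phosphatase that acts on ERK, moved most. It measured 16.1, 18.2 and 14.8 CPM in the DMSO libraries, 48.5, 45.5 and 43.6 CPM with RSL3, and 24, 20.4 and 23.7 CPM with RSL3 and Fer-1. Every RSL3 library lay above every library of the other groups, and the RSL3 and Fer-1 libraries lay above those with DMSO. The log2 change with RSL3 was 1.49 ± 0.0896 (SE, n = 3 per group), with a 95% interval of 1.30 to 1.67 and an adjusted p of 1.64e-12 in edgeR. The locus lies on chromosome 10 at 110497907 to 110512661 on the plus strand. Its pseudogenes, DUSP5P1 and DUSP5P2, held 14 to 33 and 0 to 3 counts in a library.

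DUSP4, an inducible nuclear phosphatase of ERK and JNK, had the smallest adjusted p of the 9. Its levels were 91.4, 89.1 and 87.8 CPM with DMSO, 207, 187 and 189 CPM with RSL3, and 131, 136 and 145 CPM with RSL3 and Fer-1. The 3 groups did not overlap. The log2 change with RSL3 was 1.12 ± 0.0471 (interval 1.02 to 1.22; edgeR adjusted p = 9.52e-16), or 2.17-fold. The locus lies on chromosome 8 at 29332099 to 29350762 on the minus strand. A second locus with the name DUSP4 lies inside it on the plus strand and held 1.71% as many counts.

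DUSP1, also known as MKP-1, is an immediate-early phosphatase of p38, JNK and ERK. It measured 89, 88.5 and 89.2 CPM with DMSO, 181, 162 and 153 CPM with RSL3, and 123, 125 and 140 CPM with RSL3 and Fer-1. The DMSO libraries were close together at 88.9 ± 0.365 CPM, and both other groups lay wholly above them. The log2 change with RSL3 was 0.89 ± 0.0569 (interval 0.78 to 1.01; edgeR adjusted p = 1.46e-10), or 1.86-fold. The locus lies on chromosome 5 at 172765623 to 172771206 on the minus strand and extends 2467 bases past the GENCODE 29 gene on its 3′ side.

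DUSP6, also known as MKP-3, is the cytoplasmic phosphatase specific for ERK and a widely used readout of ERK activity. Its levels were 6.48, 4.82 and 7.9 CPM with DMSO, 14.5, 16.3 and 11 CPM with RSL3, and 9.12, 9.48 and 9.01 CPM with RSL3 and Fer-1. The groups did not overlap, but the DMSO and RSL3 libraries each spread widely. The log2 change with RSL3 was 1.12 ± 0.165 (interval 0.78 to 1.46; edgeR adjusted p = 1.53e-05), or 2.18-fold, nearly that of DUSP4 with a larger error. DUSP6 lies on chromosome 12 at 89347235 to 89352501 on the minus strand. The antisense locus AC024909 overlaps 1487 bases of it and held 10.4% as many counts over all libraries, 0.897 CPM with DMSO, 1.7 CPM with RSL3 and 0.538 CPM with RSL3 and Fer-1. Whether reads were assigned by strand is not stated, so reads of the DUSP6 and antisense transcripts cannot be told apart.

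**Figure D2:**
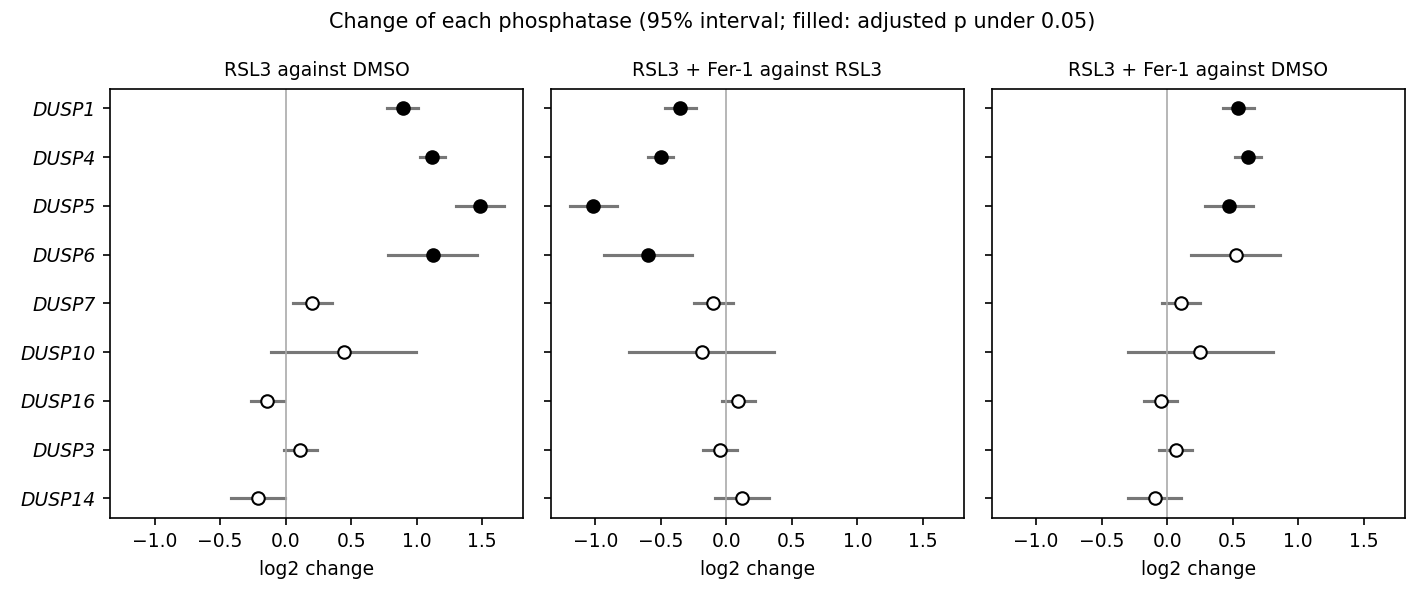
Fitted log2 change of each phosphatase with its 95% interval in the 3 comparisons, with filled points for adjusted p under 0.05. With RSL3 against DMSO, DUSP5 is at 1.49, DUSP4 and DUSP6 at 1.12 and DUSP1 at 0.89, and the intervals of DUSP3 and DUSP10 include 0.

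The other 5 members were not called. DUSP7, the close relative of DUSP6 in the cytoplasm, measured 49.2, 53.3 and 45.3 CPM with DMSO and 62.5, 56.3 and 51.3 CPM with RSL3, and the groups overlapped. Its log2 difference was 0.20 with an interval of 0.06 to 0.35 and an edgeR adjusted p of 0.0521. The call depends on the libraries, with an adjusted p of 0.0242 without DMSO replicate 2 and 0.0128 without RSL3 replicate 3. DUSP16, which acts on JNK and p38, measured 58.4, 52.5 and 54.7 CPM with DMSO and 48.3, 50.7 and 51.4 CPM with RSL3. Its RSL3 libraries all lay below those with DMSO, and the log2 difference was -0.14 (interval -0.26 to -0.013; edgeR adjusted p = 0.136). DUSP10, the other phosphatase of JNK and p38, was scarce at 1.54, 2.72 and 3.68 CPM with DMSO and 4.13, 3.79 and 2.86 CPM with RSL3. These overlapped and the interval of its log2 difference, -0.11 to 0.997, was the widest of the 9. Of the atypical members, DUSP14 measured 28.8, 27.2 and 27.2 CPM with DMSO and 21.1, 27.6 and 23 CPM with RSL3. RSL3 replicate 2 alone lay within the DMSO range, the log2 difference was -0.21 (interval -0.42 to -0.0074; edgeR adjusted p = 0.166), and without that library the adjusted p was 0.034. DUSP3, also known as VHR, measured 54.6, 48.3 and 55.6 CPM with DMSO and 55.2, 58.2 and 57.9 CPM with RSL3, a log2 difference of 0.11 (interval -0.016 to 0.24; edgeR adjusted p = 0.263).

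The levels per length were also summed by role. DUSP1, DUSP4 and DUSP5 together summed to 25.1, 24.9 and 24.6 FPKM with DMSO, 53.5, 48.3 and 46.8 FPKM with RSL3, and 35, 35.4 and 39 FPKM with RSL3 and Fer-1. DUSP6 and DUSP7 together summed to 8.65, 8.88 and 8.32 FPKM with DMSO, 12.2, 11.7 and 9.85 FPKM with RSL3, and 10, 9.71 and 9.34 FPKM with RSL3 and Fer-1. For both of these sums every RSL3 library lay above every library of the DMSO group. DUSP10 and DUSP16 together summed to 5.37, 5.21 and 5.66 FPKM with DMSO and 5.22, 5.33 and 5.12 FPKM with RSL3, which overlapped. DUSP3 and DUSP14 together overlapped as well, at 16.8, 15.3 and 16.4 FPKM with DMSO and 14.7, 16.9 and 15.7 FPKM with RSL3. The share of DUSP1 in the summed FPKM of all 9 went from 28.3% with DMSO to 35.1% with RSL3 and 33.3% with RSL3 and Fer-1, and that of DUSP4 from 14.5% to 21.1% and 18%.

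Without DMSO replicates 1 and 2, which leaves 1 DMSO library assumed to vary like the other groups, the 4 members were still called. The log2 changes were 0.90 for DUSP1 (edgeR adjusted p = 5.39e-05), 1.15 for DUSP4 (3.47e-11), 1.63 for DUSP5 (2.33e-09) and 0.83 for DUSP6 (0.0129). DUSP7 was then called too, at 0.33 (0.0336). The number of loci called over the whole table went from 2854 to 1403.

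RSL3 with Fer-1 against RSL3 alone asked what the antioxidant changed in the presence of the inhibitor. The same 4 genes, DUSP1, DUSP4, DUSP5 and DUSP6, were lower with Fer-1, and no member was called higher. Thus 4 of 9 members were called lower, where 6.46% of all tested loci were called, 3.99% lower and 2.47% higher. The median log2 change was -0.19 over the members and 0.0027 over all tested loci. The members' median is again the value of DUSP10, and it was -0.077 without RSL3 replicate 1 and -0.33 without RSL3 replicate 3 or without RSL3 with Fer-1 replicate 3. This comparison shares its RSL3 libraries with the one above, so the values are set side by side and their likeness is not tested. By library 5 of 9 members did not overlap, 4 lower and 1 higher, where 22.7% of tested loci did not overlap, 11.7% lower and 11% higher.

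DUSP5 fell most again, 2.02-fold, with a log2 change of -1.02 ± 0.0878 (interval -1.20 to -0.84; edgeR adjusted p = 8.46e-09). DUSP4 fell 1.42-fold, by 0.50 on the log2 scale (SE 0.0464; edgeR adjusted p = 2.61e-08), from 194 ± 10.8 to 137 ± 6.94 CPM. DUSP1 fell 1.28-fold, by 0.35 on the log2 scale (SE 0.0562; edgeR adjusted p = 0.000229), from 165 ± 14.4 to 129 ± 9.45 CPM. The libraries of the 2 groups did not overlap for any of the 3 nuclear phosphatases. DUSP6 fell 1.51-fold, by 0.60 on the log2 scale (interval -0.93 to -0.27; edgeR adjusted p = 0.0222), from 13.9 ± 2.7 to 9.21 ± 0.245 CPM. Its call is not firm. Leaving out RSL3 replicate 1 or 2, or RSL3 with Fer-1 replicate 1, 2 or 3, gave adjusted p of 0.0882, 0.147, 0.0842, 0.0669 and 0.0857.

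The remaining 5 members were not called with Fer-1 against RSL3. DUSP7 measured 55.2, 52.6 and 51 CPM with RSL3 and Fer-1, which overlapped the RSL3 libraries, and its log2 difference was -0.10 (interval -0.25 to 0.05; edgeR adjusted p = 0.533). DUSP16 measured 51.4, 53.9 and 54.8 CPM, just above the RSL3 libraries, with a log2 difference of 0.09 (interval -0.04 to 0.22; edgeR adjusted p = 0.498). DUSP10 measured 2.71, 3.01 and 3.74 CPM, a log2 difference of -0.19 (interval -0.74 to 0.36). These 3 genes give no called change among the cytoplasmic relative and the JNK and p38 phosphatases. DUSP14 measured 24.5, 23.4 and 29.9 CPM, a log2 difference of 0.12 (interval -0.09 to 0.32). DUSP3 measured 54.9, 53.9 and 56.9 CPM, a log2 difference of -0.05 (interval -0.18 to 0.08).

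RSL3 with Fer-1 against DMSO asked what remained different from vehicle when both agents were present. The 3 inducible nuclear phosphatases DUSP1, DUSP4 and DUSP5 were still higher than with DMSO, by 1.38-fold to 1.53-fold, so that 3 of 9 members were called higher (33.3%) and 0 lower. Over all tested loci 6.69% were called, 4.03% higher and 2.66% lower, and the median log2 change was 0.25 over the members and -0.00039 over all loci. The members' median is again the value of DUSP10. Without DMSO replicate 1 it was 0.10, then the value of DUSP7, and without DMSO replicate 3 it was 0.41, that of DUSP5. Without RSL3 with Fer-1 replicate 3 it was 0.13, that of DUSP7. DUSP4 rose by 0.62 on the log2 scale (SE 0.0468; edgeR adjusted p = 4.49e-10), DUSP1 by 0.54 (SE 0.0567; adjusted p = 1.02e-06) and DUSP5 by 0.47 (SE 0.0895; adjusted p = 0.000962). Limma on log2 FPKM did not call DUSP5, with adjusted p of 0.071 and 0.0626 at pseudocounts of 1 and 0.1. DUSP6 was higher in each of the 3 libraries than in any DMSO library, with a log2 difference of 0.52 and an interval of 0.18 to 0.86, but its edgeR adjusted p was 0.0566. Without DMSO replicate 3 it was 0.71 with an adjusted p of 0.0135. By library 4 of 9 members lay wholly above DMSO, where 23.3% of tested loci did not overlap and 12.2% lay wholly above (11.1% wholly below).

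The other 5 members had log2 differences from DMSO between -0.10 for DUSP14 and 0.25 for DUSP10, none called. DUSP10 was at -0.022 without DMSO replicate 1. DUSP7 was at 0.10 (interval -0.04 to 0.25), DUSP16 at -0.05 (interval -0.17 to 0.08) and DUSP3 at 0.06 (interval -0.06 to 0.19). Without DMSO replicates 1 and 2, DUSP1, DUSP4 and DUSP5 stayed called, at log2 changes of 0.54 (edgeR adjusted p = 0.00767), 0.65 (1.38e-06) and 0.62 (0.00423), and DUSP6 was at 0.23 (0.76). The number of loci called over the whole table went from 1157 to 443.

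The remaining phosphatases of the family and of the pathway were read from lists chosen by role. Of the 4 other MAP kinase phosphatases, DUSP8 and DUSP9 were too low to test. DUSP2, a nuclear phosphatase best known from immune cells, had a log2 difference of 0.10 with RSL3 against DMSO (edgeR adjusted p = 0.689). With Fer-1 present it rose, from 9.04 ± 0.666 CPM with RSL3 to 13.2 ± 1.58 CPM, by 0.55 on the log2 scale (edgeR adjusted p = 0.00895, and 0.0846 without RSL3 with Fer-1 replicate 2). Against DMSO, at 8.41 ± 0.455 CPM, DUSP2 rose by 0.65 with both agents (edgeR adjusted p = 0.00181, and 0.113 without DMSO replicates 1 and 2). STYXL1, a catalytically inactive relative read from a locus it shares with TMEM120A, rose by 0.44 with RSL3 (edgeR adjusted p = 0.00346, and 0.301 without DMSO replicates 1 and 2). Of 5 other atypical phosphatases tested, 0 were higher and 1 was lower with RSL3 (20% called, against 16.5% over all loci). It was the pseudophosphatase STYX, which fell by 0.27 (edgeR adjusted p = 0.00235). STYX stayed 0.27 below DMSO when Fer-1 was present (edgeR adjusted p = 0.00578, 0.0759 without RSL3 with Fer-1 replicate 3, and 0.0501 without DMSO replicates 1 and 2). Of 6 other phosphatases that act on MAP kinases, edgeR, DESeq2 and limma each called 0 in any of the 3 comparisons. PPP2CA was read from a locus joined with SKP1 and CDKL3, PPM1B from a locus joined with SLC3A1 and PPP2R1A from a locus joined with MIR6801. Their values are those of the joined loci. At an unadjusted p under 0.05 in edgeR 0 of them passed against DMSO, with RSL3 or with both agents, and 1, PPP2CB, was lower with Fer-1 against RSL3.

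**Figure D3:**
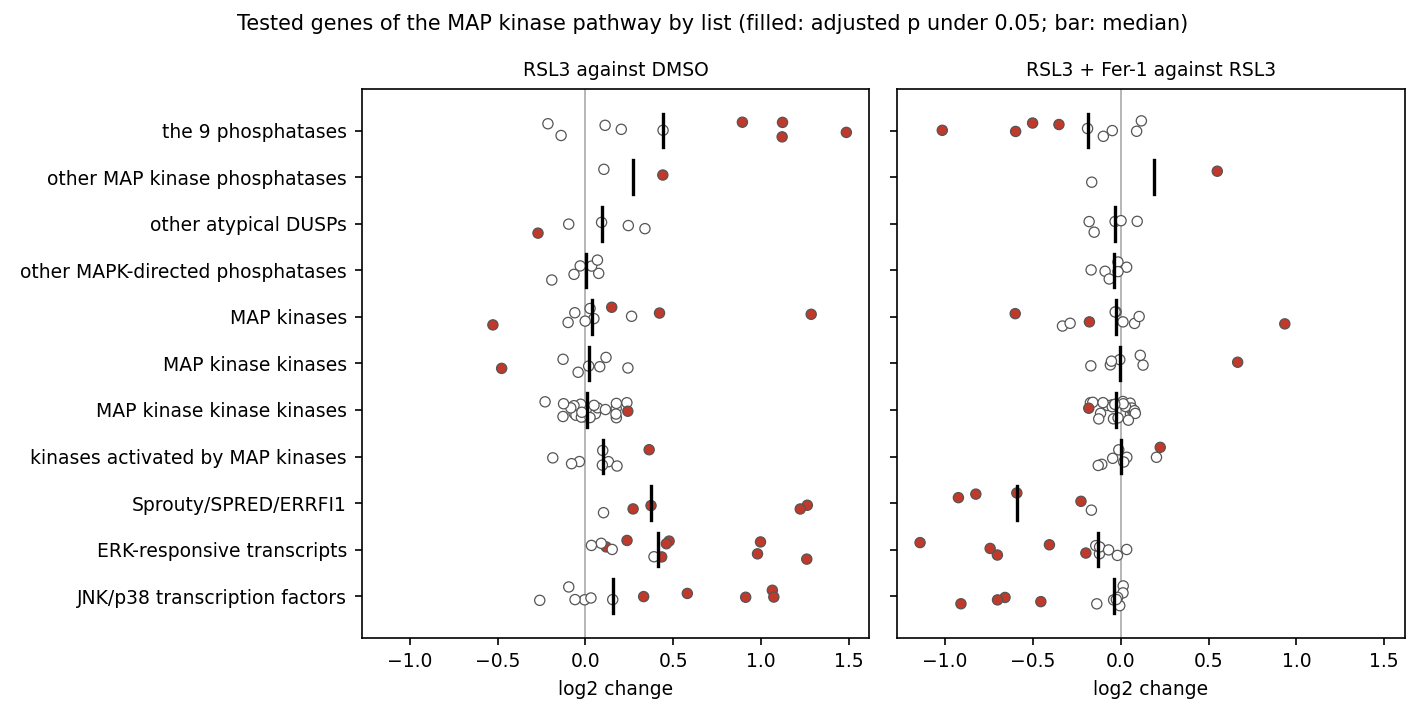
Fitted log2 change with RSL3 against DMSO and with Fer-1 against RSL3 for every tested gene of the 9 phosphatases and of 10 lists of other MAP kinase pathway genes, with filled points for adjusted p under 0.05 and a bar at each median. The feedback inhibitors and the ERK-responsive transcripts hold 4 called points of 5 and 8 of 12 with RSL3, all higher. Over all tested loci 16.5% were called. HBEGF, 1 of the 8, was tested only because it is high with RSL3. The lists were chosen with earlier results of these data known, so their shares are not ranked.

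The kinases upstream were read next. Of 22 tested MAP kinase kinase kinases, 1 was higher with RSL3 and 0 lower (4.55% called, against 16.5% over all loci). It was MAP3K20 (ZAK), a stress kinase that senses stalled ribosomes, which rose by 0.24 (edgeR adjusted p = 5.56e-05) and fell by 0.18 with Fer-1 (0.00338). Of 7 MAP kinase kinases 1 was lower (14.3%, near that of all loci), the p38 activator MAP2K6, which fell by 0.48 with RSL3 (edgeR adjusted p = 0.000294) and rose by 0.67 with Fer-1 (9e-06). Neither list had a call with RSL3 and Fer-1 against DMSO by edgeR, DESeq2 or limma, and at an unadjusted p under 0.05 in edgeR 1 kinase kinase kinase was lower and 2 kinase kinases were higher.

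Of 10 tested MAP kinases 3 were higher and 1 lower with RSL3 (40% called, against 16.5% over all loci). MAPK13, which encodes p38 delta, rose from 4.96 ± 0.316 to 12.1 ± 0.362 CPM, a log2 change of 1.29 (edgeR adjusted p = 1.01e-07). MAPK13 reached 1 FPKM in the 3 RSL3 libraries and in 0 others, so it was tested only because it is high there, and its call is no support for a change of the list. Likewise MAPK4 reached 1 FPKM in 0 RSL3 libraries and in all 6 others, and HBEGF in all 3 RSL3 libraries and 1 other. The loci of MAPK4, MAPK6, MAPKAPK5, ETV5 and MEF2D also carry the name of a neighbour, so their values are those of the joined locus. Further loci counted in the lists, such as those of MAPK12 and PHLDA1, are joined too. MAPK13 fell by 0.60 with Fer-1 against RSL3 (edgeR adjusted p = 0.00477) and remained 0.68 above DMSO (0.00182, and 0.0586 without DMSO replicates 1 and 2). MAPK4, an atypical kinase, fell by 0.53 with RSL3 (edgeR adjusted p = 0.00749) and rose by 0.93 with Fer-1 (3.32e-05). MAPK3, which encodes ERK1, rose by 0.42 with RSL3 (edgeR adjusted p = 0.0224). The call of MAPK4 was lost without DMSO replicate 1 (0.0841), and that of MAPK3 without DMSO replicate 2 or RSL3 replicate 2 (up to 0.121). Without both DMSO replicates 1 and 2 the log2 change with RSL3 was -0.50 for MAPK4 and 0.31 for MAPK3. MAPK13 alone of the tested MAP kinases was then still called with RSL3. With Fer-1 against RSL3, 1 MAP kinase was higher and 2 were lower (30% called, against 6.46% over all loci). The other lower one was MAPK6, which encodes ERK3, at -0.18 (edgeR adjusted p = 0.00859, and up to 0.0719 without RSL3 replicate 2 or RSL3 with Fer-1 replicate 3).

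Of 8 tested kinases that MAP kinases activate, 1 was higher with RSL3 (12.5% called, below the 16.5% over all loci). It was MKNK1, a kinase of the translation factor eIF4E read from a locus shared with MOB3C, which rose by 0.36 (edgeR adjusted p = 8.21e-05). With Fer-1 against RSL3 the 1 call (12.5%, against 6.46% over all loci) was MAPKAPK5, higher by 0.22 (edgeR adjusted p = 0.0474). This call was lost on leaving out any of 5 of the 6 libraries (up to 0.181). With both agents against DMSO 2 of 8 were called, both higher (25%, against 6.69% over all loci). MKNK2 rose by 0.38 (edgeR adjusted p = 0.00218) and MKNK1 by 0.23 (0.0169), the latter lost without any of 4 libraries (up to 0.0827). Neither was called without DMSO replicates 1 and 2 (0.0799 and 0.371).

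Feedback inhibitors that act above ERK were read beside the phosphatases. Of 5 tested Sprouty, SPRED and receptor inhibitors 4 were higher with RSL3 and 0 lower, with a median log2 change of 0.37. The share called was 80%, against 16.5% over all loci. SPRY4, a Sprouty protein that dampens receptor tyrosine kinase signalling, rose from 10.2 ± 0.491 to 24.5 ± 2.56 CPM, a log2 change of 1.26 (edgeR adjusted p = 1.1e-08). ERRFI1 (MIG6), an inhibitor of the EGF receptor, rose from 12.3 ± 1.03 to 28.8 ± 3.94 CPM, a log2 change of 1.22 (edgeR adjusted p = 3.72e-09). SPRY2 rose by 0.37 (edgeR adjusted p = 0.0086, and 0.12 without DMSO replicates 1 and 2). Without those replicates 2 of the 5 were called in place of 4. With Fer-1 against RSL3, 4 of 5 were lower (80%, against 6.46% called over all loci). ERRFI1 fell by 0.92 (edgeR adjusted p = 1.12e-06), SPRY4 by 0.83 (2.18e-05) and SPRY2 by 0.59 (0.000204). The share called with both agents against DMSO was 20%, against 6.69% over all loci. With both agents against DMSO 1 of 5 was higher, SPRY4 at 0.44 (edgeR adjusted p = 0.0231, lost without any of 4 libraries, up to 0.163, and 0.206 without DMSO replicates 1 and 2).

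Of 12 tested ERK-responsive transcripts, 8 were higher with RSL3 and 0 lower, with a median of 0.41, and 7 were called without DMSO replicates 1 and 2. With all libraries 66.7% were called, against 16.5% over all loci. IER3, an immediate-early gene, rose by 1.26 (edgeR adjusted p = 8.53e-15), and FOSL1, which encodes an AP-1 subunit stabilised by ERK, by 0.997 (3.57e-09). HBEGF, an EGF receptor ligand, rose by 0.98 (edgeR adjusted p = 0.00239, 0.0559 without RSL3 replicate 1, and 0.0589 without DMSO replicates 1 and 2). With Fer-1 against RSL3 6 of 12 were lower (50%, against 6.46% called over all loci). IER3 fell by 1.14 (edgeR adjusted p = 4.89e-13), FOSL1 by 0.70 (3.26e-06) and HBEGF by 0.74 (0.0407, lost without any of 4 libraries, up to 0.391). With both agents against DMSO 3 of 12 were higher (25%, against 6.69% called over all loci). ETV5 rose by 0.31 (edgeR adjusted p = 0.00185), ETV4 by 0.32 (0.0174) and FOSL1 by 0.29 (0.0437). ETV4 lost its call without any of 4 libraries (up to 0.132) and FOSL1 without any of the 6 (up to 0.175). Without DMSO replicates 1 and 2 ETV5 alone was called (0.00499), with 0.191 for ETV4 and 0.089 for FOSL1.

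Of 11 tested transcription factors targeted by JNK and p38, and of their genes, 5 were higher with RSL3 and 0 lower, with a median of 0.16. The share called was 45.5%, against 16.5% over all loci. The AP-1 subunits JUNB and JUN rose by 1.07 (edgeR adjusted p = 1.7e-09) and 1.06 (7.39e-07), and DDIT3 (CHOP), a stress factor phosphorylated by p38, by 0.91 (0.000404). With Fer-1 against RSL3 4 of 11 were lower (36.4%, against 6.46% called over all loci). JUN fell by 0.91 (edgeR adjusted p = 1.91e-05), JUNB by 0.66 (1.3e-05) and DDIT3 by 0.70 (0.0112, lost without RSL3 replicate 1 or RSL3 with Fer-1 replicate 2 or 3, up to 0.141). The share called with both agents against DMSO was 18.2%, against 6.69% over all loci. With both agents against DMSO 2 of 11 were higher, JUNB by 0.41 (edgeR adjusted p = 0.0046) and MEF2D by 0.19 (0.0238, lost without any of 4 libraries, up to 0.145), and neither was called without DMSO replicates 1 and 2 (0.273 and 0.437).

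The transcripts with the most similar course over the 9 libraries were sought for the 4 called phosphatases, among 9611 tested loci that name 1 gene and have a mean over the 9 libraries of at least 5 CPM. Likeness was the root mean square difference of log2 CPM, each gene taken relative to its DMSO mean, and it describes these libraries only. For DUSP1 the nearest were TDP2, a DNA repair phosphodiesterase, at 0.0375, the autophagy receptor SQSTM1 at 0.078 and the ferritin heavy chain FTH1 at 0.0796, where the median over all candidates was 0.617. For DUSP4 they were the transcriptional repressor BHLHE40 at 0.0587, the transmembrane protein CDCP1 at 0.0897 and the ferritin light chain FTL at 0.116, with a median of 0.749. DUSP5 had no neighbour as close. Its nearest were the neurotensin receptor NTSR1 at 0.146, NAV3 at 0.163 and SPRY4 at 0.173, with a median of 0.913. For DUSP6 they were the protease-activated receptor F2RL1 at 0.172, the NF-kB inhibitor TNFAIP3 at 0.193 and the NF-kB subunit RELB at 0.196, with a median of 0.765. NTSR1 and RELB had a mean of 3.21 and 4.78 CPM with DMSO, under the minimum of 5 CPM. Both were candidates only because they are higher in the other groups, so their nearness is no support for a shared course.

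**Figure D4:**
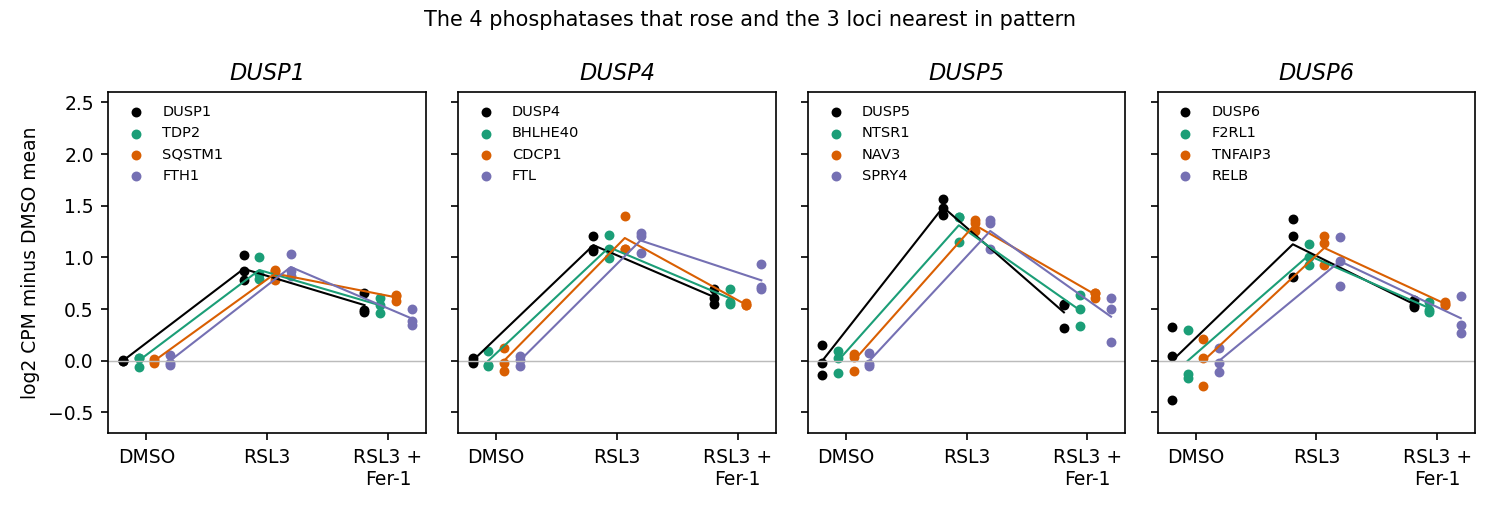
Log2 CPM relative to the DMSO mean in each of the 9 libraries (points, with lines through the group means) for DUSP1, DUSP4, DUSP5 and DUSP6 and for the 3 tested transcripts nearest to each. TDP2 follows DUSP1 with a root mean square difference of 0.0375, and the neighbours of DUSP6, at 0.172 to 0.196, spread more.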

How the data were processed

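The authors deposited 1 table of 43444 loci that gives 9 libraries each a count and an FPKM value, per the file headers. Whether the deposited counts are tallies of reads or estimates is not stated, so they were handled as estimated counts. They are whole numbers, and rounding changed none. The deposited FPKM values are scaled by the authors for length and depth, per the file headers. The submitters' processing notes name cutadapt 1.9, FastQC and the build GRCh38. Neither aligner nor counter nor strandedness is given in the sources used. The labels do not say that replicates were separate cultures, so p-values measure only the spread between these samples, which may be technical.

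Loci without a gene name, 1496 in all with 0.48 to 0.546% of the counts, were left out. Counts of the 17297 loci that reached 1 FPKM in 3 or more libraries were fitted in R 4.3.3 with edgeR 4.0.16 (TMM factors 0.9903 to 1.009, 1 fit over the 3 groups, quasi-likelihood test, Benjamini-Hochberg adjustment). DESeq2 1.42.0, limma 3.58.1 on log2(FPKM + 1) and log2(FPKM + 0.1), other scalings and filters, a replicate block and each library left out were alternatives. The fit and the motif search were tested on simulated data. The limit that a count of 0 allows was taken as 3 counts and covers counting error only.

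Named are all 9 members, up to 3 called loci per list and comparison by size of log2 change, and the 3 nearest loci of each member called with RSL3. Members and lists were chosen with earlier results of these data known.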

Additional observations from a re-analysis of the deposited data

Results flagged for a closer look

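A second locus with the name DUSP10, which is not part of the DUSP10 values of the report, was flagged as a signal outside the main measurement. It spans 297 bases on chromosome 1 at 221703015 to 221703311, has no strand, and is intronic in the 4 GENCODE 29 transcripts of DUSP10 that it overlaps. Its summed count was 37 in the 3 RSL3 libraries, with 23, 3 and 11 in each, and 0 in all DMSO and all RSL3 with Fer-1 libraries. RSL3 replicate 1 held most of it. In an edgeR fit without a filter on low values its adjusted p was 0.0679 with RSL3 against DMSO and 0.127 with Fer-1 against RSL3. With its counts added to those of the main locus, the log2 difference of DUSP10 was 0.56 in place of 0.44 with RSL3 against DMSO (adjusted p = 0.175) and -0.31 in place of -0.19 with Fer-1 against RSL3 (0.625).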

How the results depend on the processing

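DUSP1, DUSP4 and DUSP5 kept their calls with RSL3 against DMSO and with Fer-1 against RSL3 under every alternative run, and DUSP6 with RSL3 against DMSO. With Fer-1 against RSL3, DUSP6 was not called by limma (-0.41, adjusted p = 0.129, with a pseudocount of 1, and -0.56, 0.161, with 0.1) or with a replicate block (-0.60, 0.0529), and it ranged from -0.74 to -0.47 with 1 library left out. With both agents against DMSO, limma did not call DUSP5 (0.28, 0.071, and 0.43, 0.0626), DESeq2 called DUSP6 (0.52, 0.0296), and DUSP6 ranged from 0.36 to 0.71 with 1 library left out. With RSL3 against DMSO, DUSP7 was called by DESeq2 (0.20, 0.0388), with the replicate block (0.20, 0.0351) and without both DMSO replicates 1 and 2 (0.33, 0.0336), and ranged from 0.13 to 0.27 with 1 library left out, while DUSP14 ranged from -0.33 to -0.13. Without both DMSO replicates, an alternative chosen after seeing the data, the sign turned for DUSP10 (-0.027 with RSL3 and -0.22 with both agents, against DMSO) and for DUSP3 with both agents (-0.0059). DUSP10 with both agents ranged from -0.022 to 0.57 with 1 library left out. None of these turned values was called in any fit. Of the named list genes, limma at both pseudocounts did not call MAPK3 and MAPK4 with RSL3 against DMSO. HBEGF was not called there with a pseudocount of 1. With Fer-1 against RSL3 limma at both did not call MAPK13, MAPK6, MAP3K20, MAPKAPK5, HBEGF and DDIT3. With both agents against DMSO these were MAPK13, MKNK1, SPRY4, ETV4, ETV5, FOSL1 and MEF2D. The causes were not tested, apart from fewer libraries in the fits that leave some out.

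Loci called numbered 2854, 1117 and 1157 for RSL3 against DMSO, Fer-1 against RSL3, and both agents against DMSO. Limma gave 555 and 525 for the second and 496 and 505 for the third, with pseudocounts of 1 and 0.1. The third ranged from 711 to 1038 with 1 library left out. Without both DMSO replicates the first was 1403 and the third 443. With the replicate block the counts were 2803, 1068 and 1141. The main fit did not pair libraries by replicate number, and whether the numbers mark pairs was not tested. Deviations from group means correlated at -0.0497 to 0.0657 in 9 pairs of the same number and -0.0621 to 0.039 in 18 others. DMSO paired with RSL3 and Fer-1 by number gave 0.0634, 0.0264 and 0.0657, with -0.0621 to -0.00262 for other numbers. Pairs of the same number that included an RSL3 library lay at -0.0497 to -0.00474. DUSP10 had the fewest counts of the 9, and its intervals were the widest.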

Other observations

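Loci that overlap the other members held few counts. The antisense locus AC022217 at DUSP1 had 24 counts over the 9 libraries, which is 0.0496% of those of DUSP1, and AC007619 at DUSP16 had 133, or 0.66%. At DUSP6, the antisense AC024909 had 24, 63 and 25 counts with DMSO, 61, 83 and 59 with RSL3, and 7, 18 and 48 with RSL3 and Fer-1. The DMSO and RSL3 libraries overlapped, and in an edgeR fit without a filter on low values the adjusted p was 0.375 with RSL3 against DMSO and 0.0798 with Fer-1 against RSL3.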
